A study of Mus musculus with 8 samples.

Results

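The 6 genes described here are signals that bone-forming stromal cells use to steer osteoclasts, the cells that resorb bone, together with the receptor for the active form of vitamin D. They are Tnfsf11 (RANK ligand), Tnfrsf11b (osteoprotegerin), Csf1 (macrophage colony-stimulating factor, M-CSF), Sema3a (semaphorin 3A), Efnb2 (ephrin B2) and Vdr. Each was found by its gene name, and each name occurred in 1 row of the deposited table, so 6 of 26873 features are described. Messenger RNA of wild-type bone marrow mesenchymal stem cells (BMSCs), named a cell line in the labels, was profiled under osteogenic differentiation on day 3 and day 7. The medium was an extract of polycaprolactone (PCL) scaffolds, a degradable polyester, made in complete DMEM with 10% FBS at 1.25 cm2/ml over 72 h. The 4 arms carry the names PCL-S, PCL-SE, PCL-O and PCL-E, and each has 1 library per day. The series design lists a blank, an S7, an E7 and an S7+E7 group, so PCL-S and PCL-SE were taken to carry the peptide S7, PCL-E and PCL-SE the peptide E7, and PCL-O, by elimination, neither.

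RANK ligand on stromal cells, osteoblasts and osteocytes binds its receptor RANK on osteoclast precursors and drives them to become osteoclasts, and osteoprotegerin is a secreted decoy that binds the ligand first. M-CSF acts through its receptor Csf1r and keeps those precursors alive and dividing. Semaphorin 3A is a guidance signal that restrains osteoclast formation and favours osteoblasts, through neuropilin and plexin receptors. Ephrin B2 is a contact signal that pairs with EphB4 and favours osteoblasts through it. The vitamin D receptor pairs with retinoid X receptors, and in osteoblasts its activation is known to raise RANK ligand.

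The libraries held 32950326 to 41754124 counts, so that 3 counts corresponded to 0.0718 to 0.0910 CPM (counts scaled to the total of each library). The TMM factors, which adjust for composition, were 1.15 and 1.16 in the day 7 libraries with S7 and 0.928 to 1.02 in the other 6. Of the stromal and osteoblast markers, 14 of 14 were in the table and 0 were at 0 in every library, while Sp7, Bglap and Sost were below 1 CPM everywhere. Their summed level, mostly Col1a1 and Col1a2, was 42553 to 45932 CPM with S7 and 28279 to 30145 CPM without on day 3, and 10388 to 11207 CPM with S7 and 23658 to 36793 CPM without on day 7. The defining osteoclast markers Calcr, Dcstamp and Ocstamp were at 0 in every library, and so were the macrophage markers Adgre1 and Tyrobp, the endothelial markers Cdh5 and Tie1, and the lymphocyte markers Cd79b, Ms4a1 and Cd3e. Other genes of these lists were present: Ctsk at 40.3 to 107 CPM, Itgb3 at 3.65 to 15.8, Acp5 at 2.39 to 6.43 and Mmp9 at 0.240 to 8.41 among the osteoclast markers, Cd14 at 5.97 to 18.9 among the macrophage markers and Tek at 3.25 to 14.1 among the endothelial ones. The feature identifiers are rat Ensembl ones (22050 of 26873, with 0 mouse identifiers), whereas the labels give Mus musculus and mm10. Gene names therefore follow the rat identifiers, and no coordinates or sequences are given.

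Per gene length, the 6 genes spanned several orders of magnitude. The median of the authors' deposited FPKM (fragment counts scaled to gene length and library size) over the 8 libraries was 66.9 for Tnfrsf11b (range 15.5 to 104), 34.7 for Csf1 (18.5 to 54.4) and 26.4 for Efnb2 (20.4 to 36.8). It was 5.41 for Sema3a (4.55 to 11.0), 3.38 for Vdr (1.62 to 7.08) and 0.0239 for Tnfsf11 (0 to 0.175). The ranges of Tnfrsf11b, Csf1 and Efnb2 overlapped, as did those of Sema3a and Vdr, while Tnfsf11 lay below every other gene in every library. The decoy receptor had the highest median of the 6 and the ligand it binds the lowest. In both day 7 libraries with S7, however, Tnfrsf11b (15.5 and 16.1 FPKM in PCL-S and PCL-SE) lay below Csf1 (54.4 and 44.3) and Efnb2 (20.4 and 20.6).

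**Figure D1:**
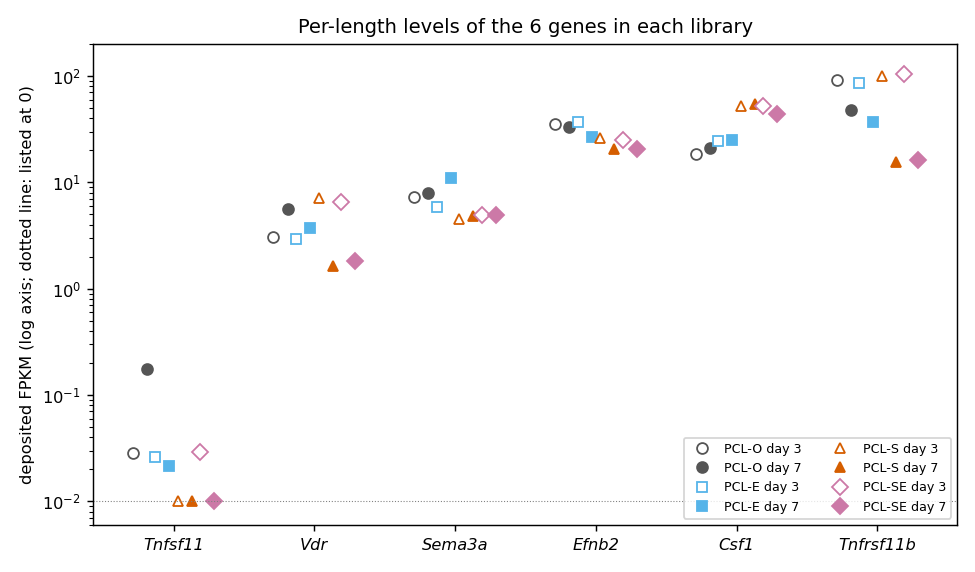
Deposited FPKM of the 6 genes (log axis) in each of the 8 libraries, with open symbols for day 3 and filled symbols for day 7; symbols on the dotted line are listed at 0. Tnfsf11 stays at or below 0.175 FPKM while Tnfrsf11b lies between 15.5 and 104.

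Tnfsf11, the ligand, was close to the limit of detection. On day 3 it had 0 counts in PCL-S, 2 in PCL-SE, 2 in PCL-O and 1 in PCL-E. On day 7 there were 0 counts in PCL-S, 0 in PCL-SE, 6 in PCL-O and 1 in PCL-E. This made 12 counts over the 8 libraries, 10 in the arms without S7 and 2 in those with it. In 7 of the 8 libraries the count was at or below 3, so the gene did not pass the low-count filter and a difference between arms was not detectable at this depth. Its highest level, 0.182 CPM in PCL-O on day 7, rests on the 6 counts of a single library.

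Tnfrsf11b, the decoy receptor, was high in every arm on day 3 and lower on day 7, most of all where S7 was present. On day 3 it was at 308 CPM in PCL-S, 322 in PCL-SE, 282 in PCL-O and 266 in PCL-E. On day 7 it was at 47.8 CPM in PCL-S, 49.9 in PCL-SE, 147 in PCL-O and 113 in PCL-E. The arms with S7 lay slightly above the others on day 3 and well below them on day 7, with no overlap on either day. On day 3 the fitted log2 fold change for S7 was 0.22 ± 0.14 (SE) and did not pass the test (edgeR quasi-likelihood, adjusted p = 0.342). On day 7 Tnfrsf11b fell by 1.63 ± 0.14 on the log2 scale with S7 (3.10-fold, adjusted p = 0.000305). The change of the S7 effect between the days was itself called, at -1.85 ± 0.20 (adjusted p = 0.00224). From day 3 to day 7 the gene fell by 3.00 ± 0.15 on the log2 scale with S7 (adjusted p = 0.000113) and by 1.14 ± 0.14 without it (adjusted p = 0.0186).

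Each of these tests pools the arm with and the arm without E7, so n = 2 libraries per group. The p-values measure how alike those libraries were, with a variance moderated over all genes, rather than the spread between cultures. As a bulk measurement, a lower level cannot separate fewer expressing cells from less RNA per cell. The fall of Tnfrsf11b without S7 was called in 2 of the 8 fits that left out a library. It was lost without either day 3 library lacking S7 (adjusted p = 0.163 without PCL-O and 0.166 without PCL-E), and narrowly without PCL-S or PCL-SE of either day (0.0505 to 0.0535). The S7 effect on day 7, its change between days and the fall with S7 were called in all 8 of those fits.

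**Figure D2:**
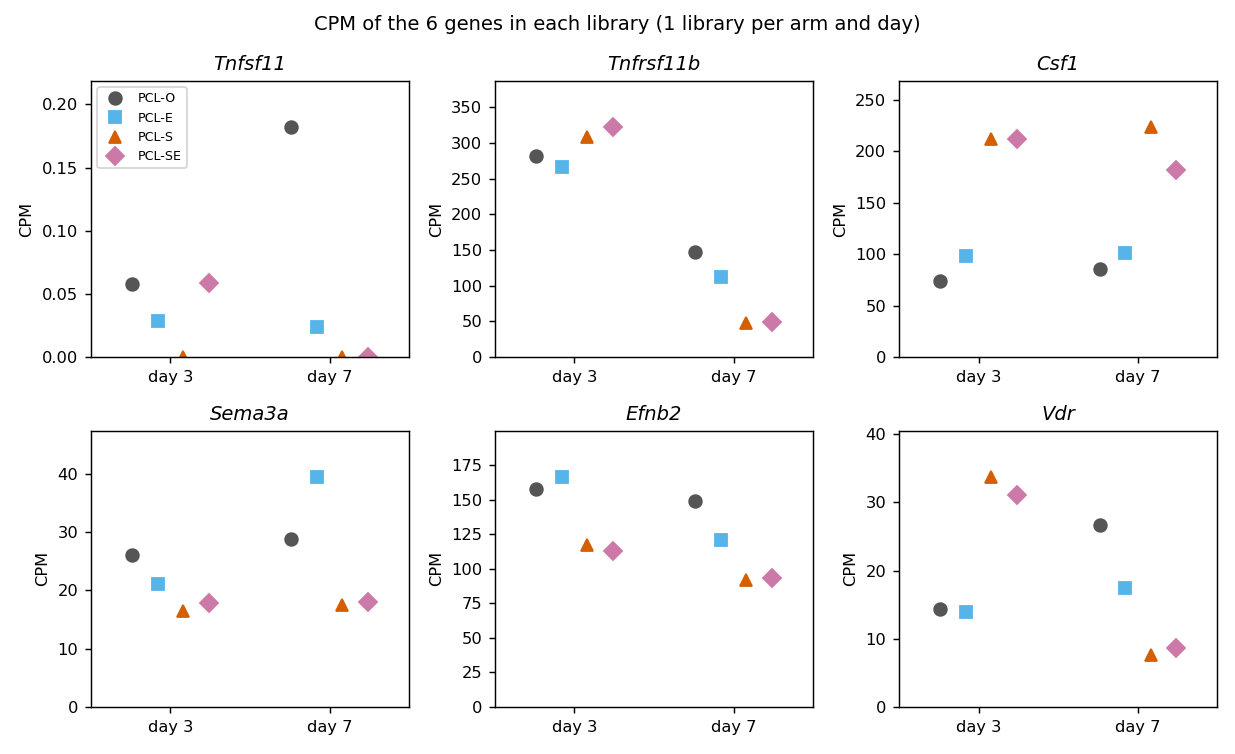
CPM of each gene by day (1 point per library; colours and symbols give the arm; each panel has its own axis from 0). Csf1 is higher and Efnb2 and Sema3a lower in PCL-S and PCL-SE on both days, while Tnfrsf11b and Vdr take opposite orders on day 3 and day 7.

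The balance of ligand to decoy, log2 of (Tnfsf11 CPM + 0.5) over (Tnfrsf11b CPM + 0.5), lay between -9.27 and -8.98 on day 3. On day 7 it stood at -7.76 for PCL-O and for PCL-E, and it was less negative for PCL-S (-6.59) and PCL-SE (-6.65). Over both days the mean was -7.92 with S7 and -8.37 without, a difference of 0.45. It ranged from 0.0036 without PCL-S of day 7 to 0.896 without PCL-S of day 3 when a library was left out. Each mean is taken over both days. Leaving out a library makes the days unequal in number, so that range mixes the day difference with S7. An exact two-sided permutation test within days over 36 regroupings gave p = 0.333, where the smallest p the design allows is 0.0556. Since Tnfsf11 was near 0 everywhere, this ratio largely followed the decoy receptor, and on day 3 its order was the reverse of that on day 7.

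Csf1, the factor that sustains osteoclast precursors, was higher with S7 on both days. On day 3 it was at 212 CPM in PCL-S, 212 in PCL-SE, 73.7 in PCL-O and 98.3 in PCL-E. Its day 7 level was 223 CPM in PCL-S, 181 in PCL-SE, 85.8 in PCL-O and 101 in PCL-E. The lowest library with S7 (181 CPM) stood above the highest without it (101 CPM), whatever the day. Csf1 rose with S7 by 1.32 ± 0.16 on the log2 scale on day 3 (2.50-fold, adjusted p = 0.00402) and by 0.90 ± 0.16 on day 7 (1.86-fold, adjusted p = 0.00352). The change of the effect between days, -0.43 ± 0.22, did not pass the test (adjusted p = 0.188). Neither did the day 7 against day 3 difference, which was 0.06 ± 0.16 without S7 and -0.37 ± 0.15 with it. Without the PCL-S library of day 3 the day 3 call was lost (adjusted p = 0.0548, log2 fold change 1.28).

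Vdr, the vitamin D receptor, changed its order between the days. On day 3 it was at 33.7 CPM in PCL-S, 31.1 in PCL-SE, 14.4 in PCL-O and 13.9 in PCL-E. On day 7 it was at 7.68 CPM in PCL-S, 8.69 in PCL-SE, 26.7 in PCL-O and 17.5 in PCL-E. The arms with S7 were above the others on day 3 and below them on day 7, with no overlap on either day. With S7 it rose by 1.21 ± 0.19 on the log2 scale on day 3 (2.32-fold, adjusted p = 0.0102) and fell by 1.64 ± 0.20 on day 7 (3.11-fold, adjusted p = 0.00095). The change of the S7 effect between days was -2.85 ± 0.28 (adjusted p = 0.00203), the largest of the 5 tested genes. From day 3 to day 7 Vdr fell by 2.28 ± 0.20 with S7 (adjusted p = 0.000315), whereas the difference without S7, 0.57 ± 0.19, did not pass (adjusted p = 0.231). The day 3 call was lost when any single day 3 library was left out (adjusted p = 0.124 without PCL-O, 0.0949 without PCL-S, 0.0686 without PCL-E and 0.0863 without PCL-SE). The day 7 call and the change between days were called in all 8 such fits.

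Sema3a, the secreted semaphorin, was lower with S7. On day 3 it was at 16.5 CPM in PCL-S, 17.8 in PCL-SE, 26.1 in PCL-O and 21.1 in PCL-E. Its day 7 level was 17.5 CPM in PCL-S, 18.0 in PCL-SE, 28.8 in PCL-O and 39.5 in PCL-E. The 4 libraries with S7 stayed between 16.5 and 18.0 CPM on both days, and the 4 without it lay at 21.1 CPM or above. On day 7 Sema3a fell with S7 by 1.16 ± 0.16 on the log2 scale (2.24-fold, adjusted p = 0.00142). The day 3 value of -0.45 ± 0.16 did not pass the test (adjusted p = 0.114), nor did the change between days (-0.71 ± 0.23, adjusted p = 0.0547). Sema3a was the one tested gene for which PCL-E stood outside the span of the other arms on day 7.

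Efnb2, the membrane-bound ephrin, was lower with S7 on both days. On day 3 it was at 117 CPM in PCL-S, 113 in PCL-SE, 157 in PCL-O and 167 in PCL-E. On day 7 it was at 91.9 CPM in PCL-S, 93.2 in PCL-SE, 149 in PCL-O and 121 in PCL-E. On each day, both libraries with S7 lay below both libraries without it. Efnb2 fell with S7 by 0.48 ± 0.12 on the log2 scale on day 3 (1.40-fold, adjusted p = 0.0417) and by 0.77 ± 0.12 on day 7 (1.70-fold, adjusted p = 0.00233). The change between days was -0.28 ± 0.17 (adjusted p = 0.247). From day 3 to day 7 it fell by 0.62 ± 0.12 with S7 (adjusted p = 0.00542), and without S7 the difference was -0.33 ± 0.12 (adjusted p = 0.251). The day 3 call was the weakest of all: it was lost in 6 of the 8 fits that left out a library, with adjusted p up to 0.286 without PCL-S of day 3, and kept only without PCL-O or PCL-E of day 7. The fall with S7 between days was lost without PCL-SE of day 3 (adjusted p = 0.0523) or PCL-S of day 7 (0.0566).

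**Figure D3:**
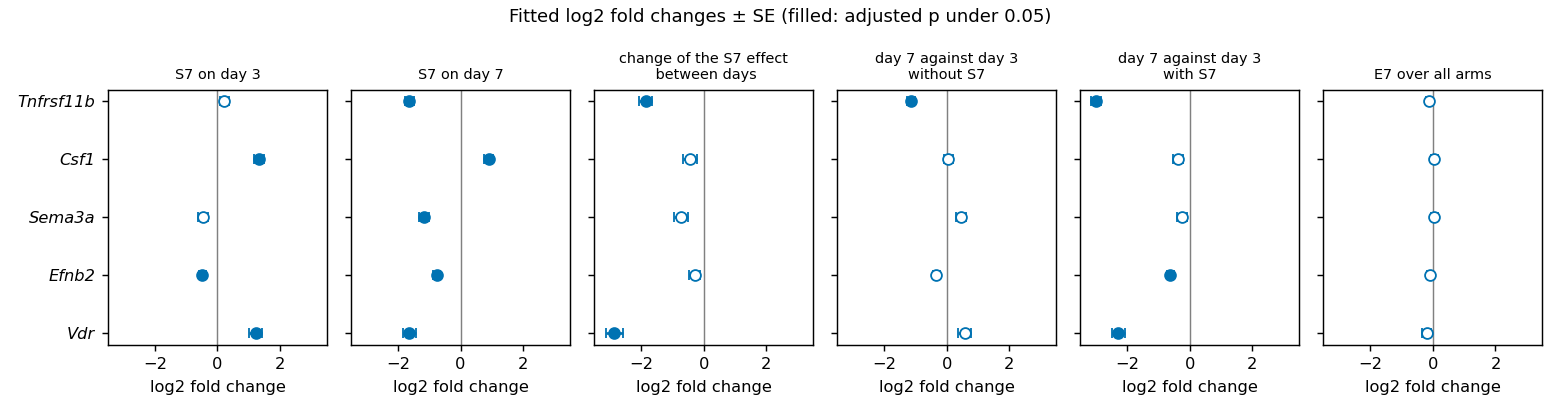
Fitted log2 fold change ± SE of the 5 tested genes (rows) in 6 comparisons (panels, common axis); filled points have an adjusted p under 0.05. On day 7 the 5 genes are called with S7, with Csf1 to the right of 0 and the other 4 to the left.

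Counted together, 2 of the 5 tested genes were called higher with S7 on day 3 (Csf1 and Vdr) and 1 lower (Efnb2). Over all 15942 genes tested, 7.10% were called higher and 6.87% lower, 2227 genes together. That total became 257 without PCL-S, 355 without PCL-O, 601 without PCL-SE and 713 without PCL-E of day 3, and 3847 without PCL-O and 3825 without PCL-E of day 7. On day 7, 1 was called higher (Csf1) and 4 lower, against 24.9% and 26.2% of all genes. About every second tested gene was thus called on day 7, and the calls of these 5 are to be read against that share. The 8137 genes called on day 7 became 5003 of 16583 without PCL-S of day 7.

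For the change of the S7 effect between days, 0 were called higher and 2 lower (Tnfrsf11b and Vdr), against 13.2% and 15.5% of all genes. The 4578 genes behind those shares became 1538 to 2244 when a day 3 library was left out, whichever it was, and 2278 without PCL-S of day 7. Between the days without S7, 0 were called higher and 1 lower, against 0.671% and 0.935%. Those 256 genes became 0 without PCL-O or PCL-E of day 3, 58 to 73 when a library with S7 was left out, and 1347 and 607 without PCL-O and PCL-E of day 7. Between the days with S7, 0 were called higher and 3 lower, against 24.4% and 26.4%. The 8090 genes called there became 4479 without PCL-SE of day 3, 5009 without PCL-S of day 3 and 5193 without PCL-S of day 7. On day 7 the split over all genes was 3965 higher and 4172 lower with TMM scaling, and 5642 and 3008 with scaling to the total count, which moves the median of all genes to 0.19 on the log2 scale. The same scaling gave 6256 and 2685 between days with S7 instead of 3889 and 4201, and 3721 and 1749 for the change of the effect instead of 2105 and 2473. The direction and the call of each called change of the 5 genes were kept with that scaling, but not always the size. Over the 5 alternatives that keep all libraries, the Efnb2 change between days with S7 ranged from -0.618 to -0.310 (main -0.616). Its S7 effect on day 7 ranged from -0.772 to -0.538 (main -0.765).

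E7 had no called effect on the 5 genes over all arms. Its term in the fit is a single average over both days and over arms with and without S7. A difference confined to a single day, or to the arms without S7, is averaged in that term and was not tested. The fitted log2 fold changes were -0.12 ± 0.10 for Tnfrsf11b, 0.05 ± 0.11 for Csf1, 0.04 ± 0.11 for Sema3a, -0.10 ± 0.08 for Efnb2 and -0.20 ± 0.14 for Vdr. Of all genes, 0% were called with E7 by edgeR (0 of 15942), while 589 had an unadjusted p under 0.05 and DESeq2 called 1. PCL-E and PCL-O have 1 library each per day, and this pair was given no test of its own within a day. On day 7 PCL-E lay between PCL-O and the arms with S7 for Tnfrsf11b, Csf1, Efnb2 and Vdr. The same held on day 3 for Csf1 and Sema3a, whereas PCL-E then lay on the far side of PCL-O from the arms with S7 for Tnfrsf11b, Efnb2 and Vdr. Its log2 ratio to PCL-O on day 7, with 2 CPM added to each TMM-scaled level, was -0.48 for Tnfrsf11b, 0.14 for Csf1, -0.39 for Efnb2, -0.64 for Vdr and 0.34 for Sema3a. PCL-SE stayed close to PCL-S: the log2 ratio between them ranged from -0.12 for Vdr to 0.09 for Sema3a on day 3. On day 7 it was -0.30 for Csf1 and between 0.01 and 0.13 for the other 4.

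Setting each arm against PCL-O with the days pooled, comparisons that share the PCL-O libraries, gave 0 calls among the 5 genes. Of all genes, 1.26% were called for PCL-S, 1.23% for PCL-SE and 0% for PCL-E, where 228 genes had an unadjusted p under 0.05 and DESeq2 called 7 (0.0439%). Csf1 came nearest, at 1.31 ± 0.20 for PCL-S (adjusted p = 0.0541) and 1.16 ± 0.20 for PCL-SE (adjusted p = 0.068). Vdr, whose S7 effects have opposite signs on the 2 days, averaged to -0.44 ± 0.91 for PCL-S and -0.49 ± 0.90 for PCL-SE. Under DESeq2, 2 of the 5 genes, Csf1 and Efnb2, were called in each of these 2 comparisons, and so were 9.75% of all genes for PCL-S and 10.2% for PCL-SE, against which the 2 are to be read. When a library was left out, the 201 genes called by edgeR for PCL-S became 1 to 94 and the 196 for PCL-SE became 1 to 104, each of the 8 libraries lowering both counts by more than 1.5 times.

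The receptors and intracellular partners of RANK ligand formed the first of the lists drawn up around the 6 genes, 18 genes that were all tested. With S7, 1 was called higher and 1 lower on day 3, and 6 higher and 4 lower on day 7, with medians of -0.07 and 0.04 against 0.00 and -0.03 over all genes. The share of the list called, 11.1% on day 3 and 55.6% on day 7, was near that of all genes in either direction, 14.0% and 51.0%. Scaled to total counts, day 7 gave 8 higher and 3 lower. Tnfrsf11a, which encodes RANK, had 25, 33, 36 and 35 counts on day 3 in PCL-S, PCL-SE, PCL-O and PCL-E, and 0, 0, 15 and 17 on day 7. Against a floor of 3 counts per library it was at least 5.04-fold lower with S7 on day 7 (adjusted p = 0.00355), at levels of at most 1.04 CPM. Sdc1 (syndecan 1) fell by 1.56 ± 0.09 on day 7 (adjusted p = 0.000123). Traf3, an adaptor that restrains noncanonical NF-κB signalling, fell by 0.69 ± 0.10, and Traf2, a related adaptor, rose by 0.77 ± 0.10 on the same day (adjusted p = 0.00184 and 0.0012). Nfatc1, the transcription factor that directs osteoclast differentiation in precursors, was at 14.0, 12.2, 7.97 and 7.38 CPM on day 3 and at 21.2, 24.1, 11.8 and 13.6 CPM on day 7, in the same order of arms. It rose by 0.61 ± 0.14 on day 7 (adjusted p = 0.00965), and that call was lost without PCL-SE of day 7 (0.077).

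Among M-CSF and related cytokines, 14 of 20 genes were tested. On day 3, 0 were called higher and 3 lower, and on day 7 the counts were 3 and 6 (medians -0.15 and -0.38). These were 21.4% and 64.3% of the genes tested, against 14.0% and 51.0% of all genes. Csf1r, the M-CSF receptor of the precursors, was at 0.0910 to 0.303 CPM and did not pass the low-count filter. Il34, the other ligand of that receptor, fell by 2.95 ± 0.53 on day 7 (adjusted p = 0.00395), and its day 7 levels were 0.212 CPM (PCL-S), 0.107 (PCL-SE), 1.30 (PCL-O) and 0.838 (PCL-E). Thus the 2 ligands of Csf1r moved in opposite directions with S7 on day 7, Csf1 being the more abundant by far. Cxcl12, a chemokine of the marrow stroma, fell by 3.11 ± 0.28 on day 7 (adjusted p = 0.000334). Lif, a cytokine of the interleukin 6 family, fell on both days, by 2.08 ± 0.21 and 1.17 ± 0.19 (adjusted p = 0.00239 and 0.00246). Ccl7, a monocyte chemoattractant, was at 7.37, 6.37, 0.898 and 1.15 CPM on day 3 and at 86.0, 80.5, 1.30 and 15.1 CPM on day 7, for the arms as ordered above. It rose by 3.38 ± 0.75 on day 7 (adjusted p = 0.00948), a call lost without PCL-S of day 7 (0.0561).

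Semaphorins and their receptors were 25 genes, all tested. With S7, 3 were called higher and 4 lower on day 3, and 2 higher and 15 lower on day 7, with medians of -0.02 and -0.94 (4 higher and 13 lower when scaled to total counts). The share called was 28.0% on day 3 and 68.0% on day 7, against 14.0% and 51.0% of all genes. Nrp1, the co-receptor that binds semaphorin 3A, was at 112, 110, 69.4 and 80.7 CPM on day 3 and at 42.4, 50.6, 79.7 and 72.3 CPM on day 7, in that same order of arms. It rose by 0.58 ± 0.13 on day 3 and fell by 0.94 ± 0.13 on day 7 (adjusted p = 0.0269 and 0.00134), and the change between days, -1.52 ± 0.18, was called (adjusted p = 0.00284). Of the signalling plexins of class A, Plxna3 fell by 1.33 ± 0.12 on day 7 (adjusted p = 0.000343). Plxna2 rose by 0.51 ± 0.11 on day 7 (adjusted p = 0.00913), which was lost without PCL-SE of day 7 (0.07). Plxna1 was at -0.33 ± 0.11 (adjusted p = 0.0448), a call lost with total-count scaling, without the low-count filter, without an E7 term and in 7 of 8 fits leaving out a library, and Plxna4 at -1.03 ± 0.49 (0.123). Other members that fell on day 7 were Sema3c (-1.74 ± 0.10), Sema5a (-1.62 ± 0.17), Plxnb1 (-2.25 ± 0.34) and Plxnd1 (-2.59 ± 0.40).

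Of ephrins and Eph receptors, 16 of 18 were tested. On day 3, 2 were called higher and 6 lower, and on day 7, 2 higher and 7 lower, with medians of -0.50 and -0.44. The share called was 50.0% on day 3, against 14.0% of all genes, and on day 7, at 56.2%, it was near the 51.0% of all genes. Ephb4, the receptor through which ephrin B2 acts in bone, was at 57.8, 61.5, 90.9 and 93.9 CPM on day 3 and at 76.3, 74.0, 116 and 92.8 CPM on day 7, again for PCL-S, PCL-SE, PCL-O and PCL-E. Like its ligand it was lower in each library with S7 than in each without it on the same day, by 0.61 ± 0.13 and 0.70 ± 0.13 on the log2 scale (adjusted p = 0.0236 and 0.00416). Among the other receptors, Epha3 fell by 3.68 ± 0.45 and Epha7 fell by 1.90 ± 0.15 on day 7 (adjusted p = 0.000898 and 0.000236). Epha4 rose by 1.11 ± 0.25 on day 3 and fell by 1.73 ± 0.28 on day 7 (adjusted p = 0.0329 and 0.00264), and in the arms with S7 its levels were 70.5 and 74.1 CPM on day 3 but 6.89 and 7.28 CPM on day 7. The ligand Efna1 rose by 1.86 ± 0.30 on day 7 (adjusted p = 0.00247), at levels of at most 5.39 CPM.

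The vitamin D system around Vdr comprised 27 genes, of which 20 were tested. On day 3, 0 were called higher and 2 lower, and on day 7, 6 higher and 4 lower, with medians of 0.09 and -0.00. The share called, 10.0% and 50.0%, was near the 14.0% and 51.0% of all genes. Scaled to total counts, day 7 gave 7 higher and 4 lower and a median of 0.22. Rxra and Rxrb, the heterodimer partners of the receptor, rose on day 7 by 0.90 ± 0.09 and 0.49 ± 0.08 (adjusted p = 0.000489 and 0.00261), while Vdr itself was lower. The levels of Rxra on that day were 36.6 CPM (PCL-S), 37.1 (PCL-SE), 15.5 (PCL-O) and 18.4 (PCL-E). Cyp24a1, the vitamin D catabolising enzyme whose transcription the activated receptor is known to induce strongly, had 0 counts in all 8 libraries, which allows up to 0.0718 to 0.0910 CPM. Cyp27b1, which makes the active hormone, was at -0.31 ± 0.45 on day 3 and 0.08 ± 0.44 on day 7 and did not pass the test. Lrp2 (megalin, an endocytic receptor for the vitamin D carrier) fell by 1.76 ± 0.30 on day 3 and fell by 2.97 ± 0.33 on day 7 (adjusted p = 0.0128 and 0.000646). Pdia3, a protein disulfide isomerase also studied as a membrane binder of vitamin D, fell by 1.17 ± 0.08 on day 7 (adjusted p = 0.000184).

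The last list held 24 other stromal genes reported to modulate osteoclast formation, of which 21 were tested. With S7, 4 were called higher and 7 lower on day 3, and 2 higher and 14 lower on day 7, with medians of -0.09 and -1.07 (3 higher and 13 lower when scaled to total counts). These were 52.4% and 76.2% of the genes tested, against 14.0% and 51.0% of all genes. Wnt16, a Wnt ligand that restrains osteoclasts, fell by 2.91 ± 0.30 on day 7 (adjusted p = 0.000504). Slit3, a secreted guidance ligand, fell by 3.94 ± 0.41, the matrix protein Postn fell by 2.97 ± 0.20 and the Notch ligand Jag1 fell by 2.36 ± 0.17 (adjusted p = 0.000533, 0.000161 and 0.000192). Sphk1, the kinase that makes sphingosine 1-phosphate, rose on day 7 by 2.24 ± 0.14 (adjusted p = 0.000144), and its levels were 42.2 CPM (PCL-S), 43.3 (PCL-SE), 8.74 (PCL-O) and 6.90 (PCL-E).

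The day 3 counts of these lists rest on few libraries, as do those over all genes given above. The share of all called genes that keep their call with each library left out was not counted, so none stands beside these counts. Of the 33 calls on day 3 in the 6 lists together, 1 (Lif) was kept in all 8 fits that left out a library, and without PCL-S of day 3 a single call remained, in the cytokine list. The day 3 call was kept in 4 of the 8 fits for Nrp1, 2 for Epha4, 2 for Ephb4 and 5 for Lrp2, and it was lost for all 4 without PCL-S, PCL-O or PCL-E of day 3. Of the 71 calls on day 7, 47 were kept in all 8.

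**Figure D4:**
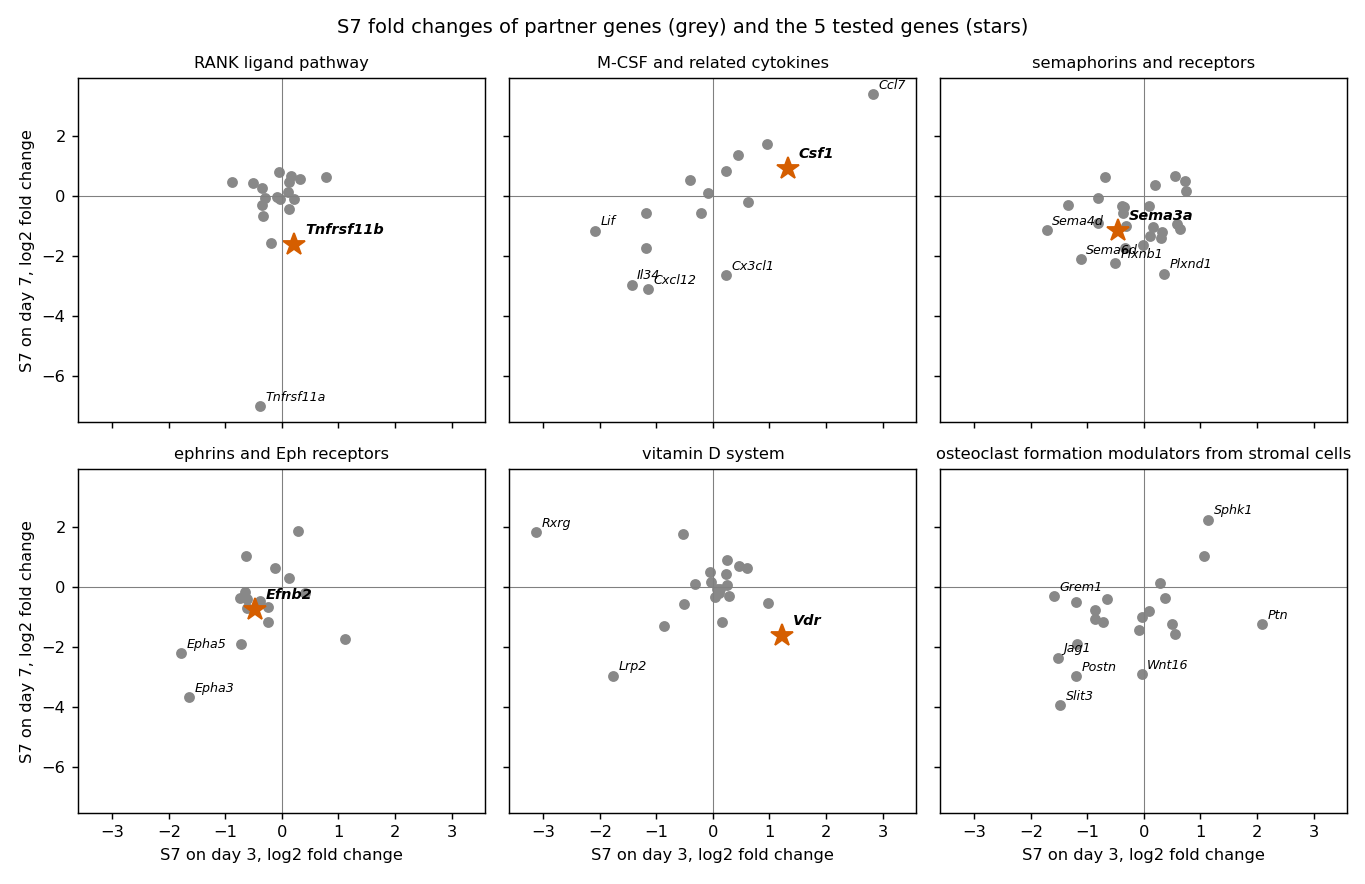
Log2 fold change with S7 on day 3 (horizontal) and day 7 (vertical) for the tested genes of the 6 lists (grey) and the 5 tested genes (stars). Most semaphorin genes and stromal modulators lie below 0 on day 7 (medians -0.94 and -1.07), and the Tnfrsf11a point is a fitted value against libraries at 0 counts.

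Markers of the stromal lineage and of other cells moved with S7 as well. Of the 12 stromal and osteoblast markers tested, 3 were called higher and 0 lower with S7 on day 3 (25.0%, against 14.0% of all genes). On day 7, 2 were called higher and 6 lower (66.7%, against 51.0% of all genes). Scaled to total counts, day 7 gave 3 higher and 4 lower. The day 3 calls, of Nt5e, Runx2 and Thy1, each depended on single day 3 libraries. So did the day 7 calls of Dmp1, Eng, Pdgfra, Spp1 and Thy1 on single libraries, unlike those of Alpl, Col1a1 and Col1a2. Of the 6 osteoclast markers tested, 1 was called higher on day 3 (16.7%, against 7.10% of all genes). On day 7, 0 were called higher and 5 lower (83.3%, against 26.2% of all genes called lower). Among the 5 lower ones, Oscar was at most 0.850 CPM and Tnfrsf11a had 0 counts in both day 7 libraries with S7. The day 7 log2 fold change of Itgb3 was -0.51 without PCL-O of day 7 and -1.33 without PCL-S of day 7. That of Oscar was -2.00 and -3.08 in the same fits. For Mmp9 it was -3.35 without PCL-SE and -4.71 without PCL-S of day 7. On that day Mmp9 was at 0.668 CPM (PCL-S), 0.240 (PCL-SE), 2.85 (PCL-O) and 8.41 (PCL-E). The calls of Itgb3, Oscar and Mmp9 each depended on single day 7 libraries. The osteoclast markers were 10 of 10 in the table, with 5 of them below 1 CPM everywhere. On day 3 they summed to 90.2 to 95.0 CPM with S7 and 63.3 to 65.0 CPM without. The day 7 sums were 52.5 to 53.7 CPM with S7 and 115 to 127 CPM without. Most of each sum was Ctsk (cathepsin K), at 40.3 to 107 CPM. With S7, Ctsk rose by 0.57 ± 0.07 on day 3 and fell by 1.47 ± 0.07 on day 7 (edgeR adjusted p = 0.00479 and 9.22e-05). The day 3 rise of Ctsk was kept in 4 of 8 fits leaving out a library. Monocyte and macrophage markers, 8 of 8 in the table, summed to 16.1 to 19.9 CPM with S7 and 6.64 to 9.72 CPM without. Cd14 made up most of that sum, at 15.6 to 18.9 CPM with S7 and 5.97 to 9.05 CPM without. Endothelial markers (5 of 6 in the table) summed to 12.8 to 14.4 CPM with S7 and 5.68 to 6.83 without on day 3. On day 7 they summed to 4.25 to 4.48 CPM with S7 and 3.37 to 4.31 without. Over both days, adipocyte markers (4 of 4) summed to 0.293 to 3.61 CPM with S7 and 0 to 0.455 without. Lymphocyte markers (7 of 8) summed to 0.0488 to 0.235 CPM with S7 and 0 to 0.212 without. The part of these markers in the results above was not tested. Of the 8 monocyte and macrophage markers, 7 were below 1 CPM in every library, among them Csf1r (0.0910 to 0.303 CPM), Adgre1 and Tyrobp. Cd14 was the exception. Tnfrsf11a, the receptor of RANK ligand, had 25 to 36 counts on day 3. On day 7 it had 15 and 17 counts without S7 and 0 in both libraries with S7.

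The genes whose levels followed each of the 5 most closely over the 8 libraries were picked by Pearson's r of log2(TMM-scaled CPM + 2) among 7978 genes with at least 20 CPM in some library. The 8 libraries share arms and days, so r is a description and carries no p. For Tnfrsf11b they were Sptan1 (r = 0.997), a spectrin, Ror1 (0.996), a receptor tyrosine kinase for Wnt5a, and Mylk (0.996), myosin light chain kinase. For Csf1 they were Pamr1 (0.994), Uap1 (0.991), an enzyme of amino sugar synthesis, and Xdh (0.988), xanthine dehydrogenase. Xdh was at 0.0910 to 1.41 CPM without S7 and 15.8 to 25.0 CPM with it. For Vdr they included Dclk1 (0.992), a doublecortin-like kinase, and Arhgap11a (0.984). For Efnb2 they were Usp31 (0.993), Zdhhc21 (0.992) and Nbas (0.992). Sema3a had less close matches: Fyttd1 (0.975), F3 (0.965), which encodes tissue factor, and Rnpc3 (0.962).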

How the data were processed

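Counts per gene and library were used as deposited: they are whole numbers, per the file headers, 1 column per arm and day. The authors' FPKM columns, scaled per length and library total per the file headers, served only to rank levels between genes. An aligner and a counting tool are not named in the sources used here. The labels give mm10 and 3 RNA samples, whereas the identifiers are rat ones and each arm and day has 1 column. Of the table, 10 malformed lines were left out. The authors' deposited comparisons were not used here.

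CPM are scaled to library totals, and fold changes use TMM. After filterByExpr 15942 genes were fitted in edgeR 4.0.16 (R 4.3.3) with quasi-likelihood F-tests and Benjamini-Hochberg adjustment over all of them, at 0.05. One fit had terms for S7, day, S7 by day and E7 (biological coefficient of variation 0.137, 3 residual degrees of freedom), and the other arm and day (0.281, 3 residual degrees of freedom). SE is the fold change over the square root of F. With 1 library per arm and day, fits that leave out a library assume that the lone library left in a group varies like the others. The members, lists and tests were chosen with earlier results of these data known. Named from each list were up to 6 called genes with the largest S7 fold change, and direct partners of the 6 genes. Of 132 list and partner genes, 131 were in the table. Alternatives were other scalings, no filter, DESeq2 1.42.0, no E7 term, other added CPM and leaving out each library. The scripts were tested on simulated data. A gene that the rule on likeness picked for Vdr is not reported here.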

Additional observations from a re-analysis of the deposited data

Results flagged for a closer look

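For 2 genes the effect of S7 on day 7 differed from that on day 3 by a test of the difference itself. For Tnfrsf11b the S7 effect was 1.85 lower on the log2 scale on day 7 (value -1.85, adjusted p = 0.00224 with edgeR). For Vdr it was 2.85 lower (value -2.85, adjusted p = 0.00203). The Vdr effect changed sign, with both libraries with S7 above both without it on day 3 and below them on day 7.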

How the results depend on the processing

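The called changes of the 5 tested genes kept their direction under every alternative, and their call under the other scalings, without the low-count filter, with DESeq2 and without an E7 term. Leaving out a library, the genes called ranged from 0 to 4 for S7 on day 3 (main 3) and from 0 to 3 between days without S7 (main 1). Over all genes, the calls in these comparisons also moved with the library left out, as given above. For PCL-S against PCL-O (main 0) the count was 1 with total-count scaling, 1 without the filter and 2 with DESeq2. The same settings called 181 of 15942, 255 of 21739 and 1555 of 15942 among all genes. For PCL-SE the count was 1 with total-count scaling and 2 with DESeq2, against 214 and 1626 of all 15942 genes. The cause was not tested.

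Reversals touched uncalled values only. When a library was left out, the log2 fold change of Csf1 between days without S7 ranged from -0.156 to 0.295. For E7 the ranges were -0.0606 to 0.172 for Csf1, -0.0706 to 0.167 for Sema3a and -0.151 to 0.0037 for Efnb2. Against PCL-O, Vdr ranged from -1.60 to 0.850 for PCL-S and from -1.52 to 0.826 for PCL-SE. For PCL-E the ranges were -0.949 to 0.554 (Tnfrsf11b), -1.53 to 1.02 (Vdr), -0.411 to 0.0759 (Efnb2) and -0.458 to 0.477 (Sema3a). With total-count scaling Sema3a between days with S7 became 0.0501. The single-library ratios of day 7 to day 3 in PCL-S then became 0.0739 for Csf1 and 0.0727 for Sema3a, and in PCL-SE 0.0171 for Sema3a. The ligand to decoy difference ranged from 0.0036 to 0.896 when a library was left out. That range also holds the day difference, as the days are then unequal in number. Replicates could not be paired, because each arm and day has 1 library. At this depth Tnfsf11, at 0 to 6 counts, limits any statement on RANK ligand.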
